A study of Mus musculus with 16 samples.

Results

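The comparison described here is the change between day 4 and day 7 in the ear skin of BALB/c mice with imiquimod-induced skin inflammation, averaged over 2 kinds of ear injection. All 16 libraries of the series entered it, 1 per mouse: the 8 whose titles give day 7 were set against the 8 whose titles give day 4, with the injection kept as a separate term. The mice were 8 weeks old and all received imiquimod (IMQ), a drug that activates Toll-like receptor 7 and makes mouse skin red, scaly and thick. The 4 groups, each of 4 mice, were IMQ with saline vehicle at day 4, IMQ with lysophosphatidylcholine (LPC) at day 4, IMQ with vehicle at day 7 and IMQ with LPC at day 7. LPC is a membrane phospholipid that has lost 1 fatty acid, and it was injected into the ear at 10 mM in 10 µl; saline was given in the same volume, and the schedule named 6 daily injections. Day 7 mice had therefore had more days of IMQ and more injections than day 4 mice, and the effects of time, IMQ dose and injection number cannot be told apart. No group without IMQ was analysed here.

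As background, IMQ drives plasmacytoid and other dendritic cells and gamma-delta T cells to make interleukin-23 (IL-23), IL-17 and IL-22, which act on keratinocytes, the cells of the epidermis. Keratinocytes respond by dividing faster, by making wound keratins and antimicrobial proteins and by attracting neutrophils. Hair follicles pass through cycles of growth (anagen), regression and rest, and hair shaft keratins are made only during growth. In whole ear tissue, fewer cells of a type and less RNA per cell cannot be told apart.

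Levels are given as CPM (read counts scaled to library size) with library sizes adjusted by the trimmed mean of M-values (TMM), and a change is the log2 fold change of day 7 over day 4 with its standard error (SE). A gene was called, and is said to have risen or fallen, when its Benjamini-Hochberg adjusted p was below 0.05 in edgeR's quasi-likelihood test over all 15782 genes tested. The libraries held 18704197 to 20131513 expected counts and 17215 to 17730 genes each. Epidermal keratins were abundant in each library (Krt5 at 3144 CPM or more), and fibroblast, hair follicle and macrophage markers were present in every one. The samples were whole ear: the skeletal muscle gene Acta1 ran from 67.5 to 7164 CPM and the fat cell gene Adipoq from 0.542 to 289 CPM over the 16 mice. Vehicle day 4 mouse 3 and vehicle day 7 mouse 4 had the lowest neutrophil scores of the 16, and LPC day 7 mice 2 and 4 had higher muscle scores than the other LPC mice. Muscle scores of the vehicle day 4 mice, at 6.43 to 10, were all above those of the LPC day 4 mice, at 3.29 to 6.1. Of the genes put in the marker list as absent from skin, Alb stayed at or below 0.865 CPM, but the glial gene Gfap was found in all 16 libraries.

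Between day 4 and day 7, part of the measured hair shaft genes (10 of 30), follicle regulators (7 of 27), sebaceous gland genes (4 of 26) and dendritic and Langerhans cell genes (4 of 20) fell. Part of the wound keratins and antimicrobial proteins (6 of 19), cell division genes (12 of 32), macrophage genes (8 of 26) and collagen and matrix genes (9 of 25) rose. The test called 1119 genes (7.09% of those tested), of which 750 rose (4.75%) and 369 fell (2.34%). With the further demand of a change over 2-fold, 334 rose (2.12%) and 205 fell (1.3%). The median log2 fold change of all tested genes was 0.02. On log2(FPKM + 0.1) values tested with limma, where that median was -0.08, the split turned, with 369 higher and 476 lower, and on log2(FPKM + 1) it was 345 and 445. Each of the 750 and each of the 369 had the same sign within vehicle and within LPC, which an average over both favours by its construction.

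The counts of genes that passed differed between the injections, which is not in itself a test of a difference. In a model with a mean per group, 1736 genes (11%) passed the test within LPC and 0 within vehicle, where 2050 had an unadjusted p below 0.05; these contrasts share the spread of all 16 mice. The genes that rose had a median log2 fold change of 0.67 within vehicle and 1.03 within LPC, and those that fell medians of -0.90 and -1.34. Some lists, the hair shaft and cell division lists among them, had the larger median change within vehicle, and others within LPC. The test of the difference itself called 0 genes, with 2674 at an unadjusted p below 0.05 and a lowest adjusted p of 0.0583, whereas DESeq2 called 585 and limma-voom 9.

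Single mice moved the number of calls. Without vehicle day 7 mouse 1 the test called 118 genes, and without vehicle day 7 mouse 4 it called 2637. The count also moved by over 1.5 times without vehicle day 4 mouse 1 (434) or 3 (290), LPC day 4 mouse 1 (331), 2 (323) or 3 (238), vehicle day 7 mouse 3 (294), and LPC day 7 mouse 1 (689), 2 (570) or 3 (607). No main call changed sign in any of these 16 fits. In them 117 genes were called every time, 94 higher and 23 lower, and for genes named below the number of fits that kept the call, of 16, follows the adjusted p.

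**Figure D1:**
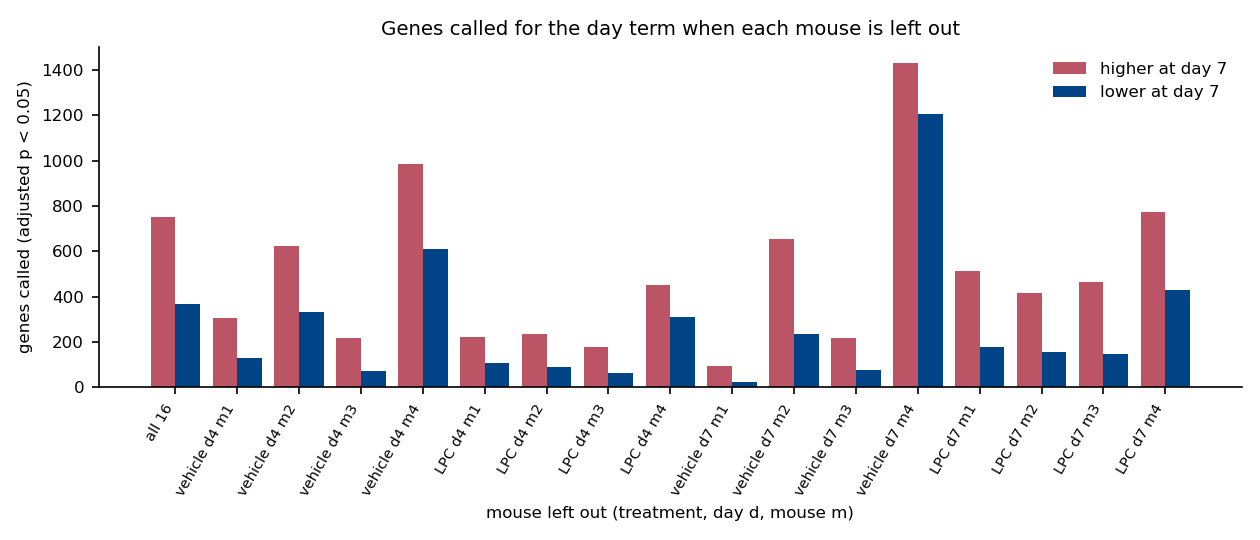
Genes called for the day term (vertical axis, number with adjusted p below 0.05) with all 16 mice and with each mouse left out in turn (horizontal axis), split into genes higher (red) and lower (blue) at day 7. Without vehicle day 7 mouse 1, 94 were higher and 24 lower, and without vehicle day 7 mouse 4, 1430 were higher and 1207 lower.

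The 10 genes with the smallest p were looked up after their values were seen, and 9 are described here; the other, Sox9, is described with the follicle. Cotl1, which encodes an actin-binding protein of leukocytes, lay between 57.4 and 87.3 CPM at day 4 (median 66.1) and between 87.3 and 285 CPM at day 7 (median 228). No day 7 mouse was below a day 4 mouse (1.56 ± 0.20, adjusted p = 0.00536). Scin, which encodes the actin-severing protein adseverin, had a median of 43.1 CPM at day 4 (lowest 37.7, highest 59.4) and of 19.4 CPM at day 7 (lowest 11.7, highest 30.2). All day 7 mice were below all day 4 mice (-1.15 ± 0.15, adjusted p = 0.00536). Elk3, an ETS-family transcription factor (0.96 ± 0.13, adjusted p = 0.00536), the dynein light chain gene Dynlt1c (0.94 ± 0.13, adjusted p = 0.00536) and Emilin2, of the extracellular matrix (1.47 ± 0.22, adjusted p = 0.00959), rose. The somatostatin receptor gene Sstr4 also rose (2.15 ± 0.32, adjusted p = 0.00994), at levels of 0.869 CPM or less. Its day 4 values, 0.0519 to 0.16 CPM, are those of at most 3 counts per library, so the size of its change is uncertain. The water channel gene Aqp2 (-1.75 ± 0.24, adjusted p = 0.00591), the amino acid transporter gene Slc7a6 (-0.71 ± 0.10, adjusted p = 0.00536) and S100a7l2 (-2.77 ± 0.38, adjusted p = 0.00536) fell. All 10 were called in all 16 fits. Across all tested genes, 29 had every day 7 mouse above every day 4 mouse (0.184%) and 15 had every one below (0.095%), and 43 of these 44 were called.

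Hair follicle genes had large falls. Of 30 tested hair shaft genes (keratins and the keratin-associated proteins that bind them), 10 fell, 0 rose and all 30 had a negative change, with a median of -3.0 (-3.47 within vehicle, -2.55 within LPC). Krt35, a type I hair keratin of the shaft, lay between 5.60 and 384 CPM at day 4 (median 138) and between 0.264 and 26.7 CPM at day 7 (median 5.75). The ranges overlapped, because 1 LPC day 4 mouse was at 5.60 CPM and a mouse of each day 7 group was above 20 CPM, while the other 7 day 4 mice were at 23.2 CPM or more. Its change was -3.61 ± 0.87, adjusted p = 0.0292, called in 12 fits. S100a3, a calcium-binding protein of the hair cuticle, ranged from 7.38 to 518 CPM around a median of 292 in the day 4 mice and from 1.74 to 67.6 CPM around 14.7 in the day 7 mice (-3.53 ± 0.82, adjusted p = 0.027, 12 fits). The hair keratin Krt84 had a median of 82.4 CPM at day 4 (lowest 3.97, highest 217) and of 7.24 CPM at day 7 (lowest 2.53, highest 20.9) (-3.0 ± 0.68, adjusted p = 0.026, 13 fits). Krt32 also fell (-3.49 ± 0.77, adjusted p = 0.0243, 14 fits).

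The largest changes were ranked over called genes whose mean level was 1 or more in log2 CPM, with a symbol that is not that of a predicted gene or clone, and the same sign within vehicle and within LPC. Of the 12 largest falls ranked in this way, 11 are known from the hair follicle: Krtap5-4, Krtap12-1, Krtap1-4, Krtap19-3, Krtap5-3, Krtap14, Vsig8, Krt35, Krt40, Krt82 and S100a3, and the other was Lyg2, a lysozyme-like gene. Their changes ran from -4.08 for Krtap5-4 to -3.53 for S100a3, with adjusted p between 0.027 and 0.0485, and 3 to 12 fits kept the calls. Some called genes outside that ranking, such as Shh (below), fell further. Lyg2 lay between 0 and 21.9 CPM at day 4 (median 11.4) and between 0 and 3.42 CPM at day 7 (median 0.508). Keratin-associated protein genes are near-identical copies, so their split of reads is uncertain. The count for the hair shaft list rested on single mice, at 0 to 27 over the 16 fits, and was 0 with vehicle mice alone or LPC mice alone. The fit of vehicle mice alone called 0 of 15379 genes, so its 0 holds for every list and says nothing of this one.

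Some regulators of follicle growth fell too. Of 27 tested, 7 fell and 0 rose, with a median of -0.78, and 2 to 13 fell in the fits without 1 mouse. Sox9 (chr11:112782210-112787757, build GRCm38), a transcription factor of the outer root sheath and follicle stem cells, lay between 46.0 and 99.7 CPM at day 4 (median 73.7) and between 21.3 and 45.8 CPM at day 7 (median 27.4). The 2 days did not overlap, and its change was -1.29 ± 0.18, adjusted p = 0.00681, with -1.20 within vehicle and -1.38 within LPC (16 fits). Shh (chr5:28456840-28467101), the ligand made by the growing hair bulb, ranged from 0.267 to 8.20 CPM around a median of 0.953 in the day 4 mice and from 0 to 0.151 CPM around 0.0532 in the day 7 mice. The day 7 values are those of at most 3 counts per library, and none reached a day 4 mouse (-4.79 ± 0.77, adjusted p = 0.0111, 16 fits). The growth-phase ligand gene Wnt10b had a median of 7.51 CPM at day 4 (lowest 1.53, highest 15.8) and of 0.995 CPM at day 7 (lowest 0.241, highest 4.30) (-2.36 ± 0.53, adjusted p = 0.0244, 12 fits). The transcription factor genes Gata3 (-0.78 ± 0.17, adjusted p = 0.0243, 15 fits), Lef1 (-2.02 ± 0.48, adjusted p = 0.0283, 11 fits), Msx2 (-1.86 ± 0.44, adjusted p = 0.0277, 11 fits) and Dlx3 (-1.65 ± 0.43, adjusted p = 0.0363, 5 fits) fell too; Lef1, Msx2 and Dlx3 were named after their values were seen.

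**Figure D2:**
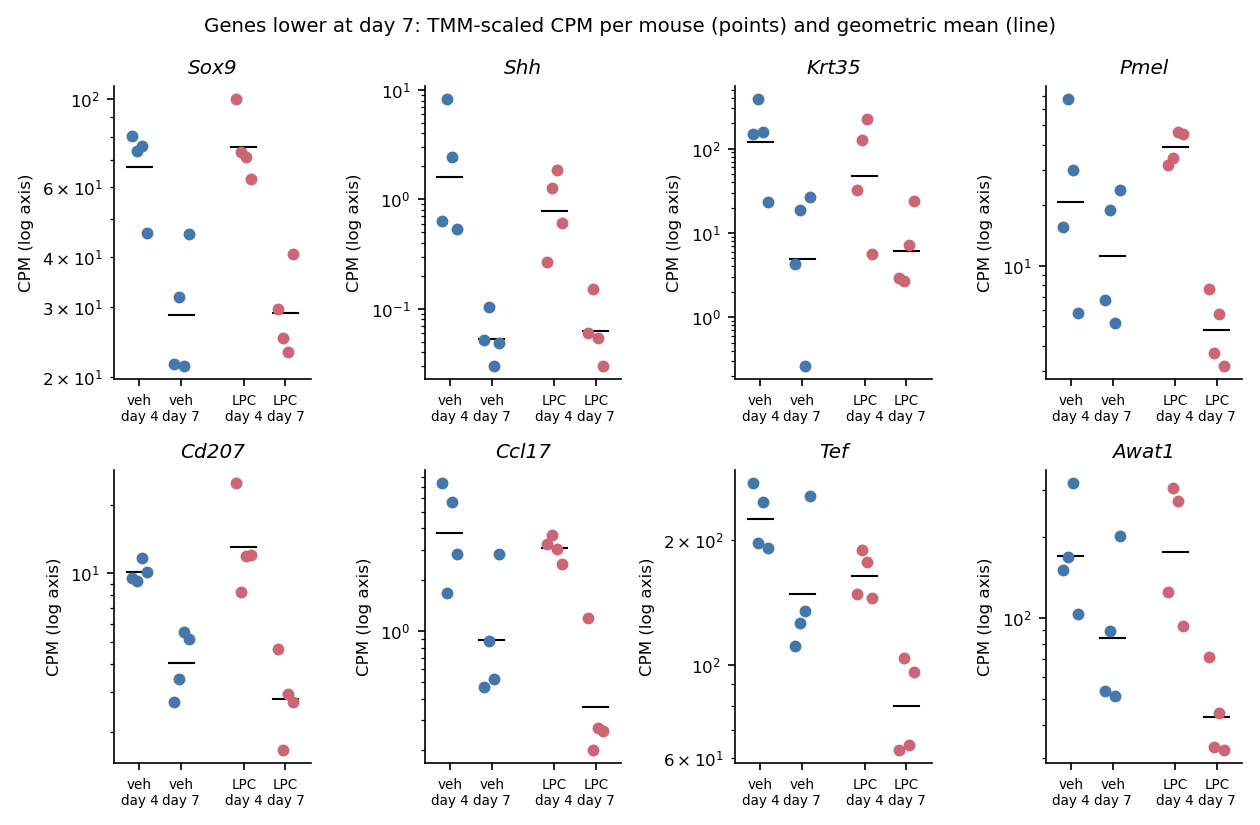
Level per mouse (points, TMM-scaled CPM on a log axis) of 8 genes that fell, in vehicle (blue) and LPC (red) mice at day 4 and day 7, with the geometric mean of each group (line). Values of 0 are drawn at 0.03 CPM; Sox9, Shh and Cd207 had no day 7 mouse above a day 4 mouse, while Krt35, Pmel, Ccl17, Tef and Awat1 overlapped.

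Smaller numbers of pigment, oil gland, cartilage and glial genes fell, where 2.34% of all tested genes did. Of 11 melanocyte genes 1 fell, and all 11 had negative changes, with medians of -0.68 within vehicle and -2.52 within LPC. With LPC mice alone 8 fell, and with the replicate number as a block 0 did. With vehicle mice alone 0 fell, but that fit called no gene of any kind, whereas the fit of LPC mice alone called 1100. The count was 0 to 8 without 1 mouse, and 0 in 10 of those 16 fits. Pmel, which builds the fibrils that melanin is laid on, lay between 5.80 and 67.4 CPM at day 4 (median 33.1) and between 3.17 and 23.9 CPM at day 7 (median 6.24) (-2.03 ± 0.51, adjusted p = 0.0338, 6 fits). The day 7 LPC mice, at 3.17 to 7.70 CPM, were all below the day 4 LPC mice, whereas the vehicle days overlapped. Among 26 sebaceous gland genes 4 fell and 1 rose, and the number that fell was 0 to 8 without 1 mouse (8 without vehicle day 7 mouse 4, 0 in 8 of the fits) and 0 with the replicate number as a block. The wax synthase gene Awat1 had a median of 159.5 CPM at day 4 (lowest 93.2, highest 317) and of 52.4 CPM at day 7 (lowest 32.2, highest 201) (-1.52 ± 0.39, adjusted p = 0.035, 8 fits). Elovl3, a fatty acid elongase (-1.18 ± 0.32, adjusted p = 0.0397, 5 fits), Cidea, a lipid droplet protein (-1.37 ± 0.38, adjusted p = 0.0423, 4 fits), and Far2, a fatty alcohol enzyme (-1.27 ± 0.36, adjusted p = 0.0462, 3 fits), fell as well. The list member that rose was Fabp5, a fatty acid carrier that keratinocytes also make, which ranged from 765 to 1420.4 CPM around a median of 1109 in the day 4 mice and from 975 to 4300.4 CPM around 2723 in the day 7 mice (1.37 ± 0.25, adjusted p = 0.014, 16 fits). Of 16 cartilage genes 2 fell, Sox9 and its partner Sox5 (-0.87 ± 0.23, adjusted p = 0.0384, 6 fits), both also active in the follicle, and 1 to 3 fell without 1 mouse. With all 16 mice the main matrix genes of cartilage did not pass, with Acan at -1.48 (adjusted p = 0.0598). The list's count depended on the fit. It was 5 with DESeq2, 7 with the muscle score as covariate, 8 without LPC day 7 mice 2 and 4, and 1 with the replicate number as a block. LPC day 7 mice 1 and 3 had cartilage scores of 1.75 and 1.92, against 4.69 and 4.61 in LPC day 7 mice 2 and 4. Of 15 Schwann cell and myelin genes 2 fell, the myelin gene Ncmap (-1.25 ± 0.34, adjusted p = 0.0393, 5 fits) and Egr2 (-1.02 ± 0.29, adjusted p = 0.0474, 4 fits), with 0 to 4 without 1 mouse. Egr2 is also a member of the immediate early list, and the cells in which it fell were not tested. Gfap, found in non-myelinating Schwann cells as well as in the brain, lay between 0.611 and 1.43 CPM at day 4 (median 0.714) and between 0.155 and 0.542 CPM at day 7 (median 0.212), and the days did not overlap (-1.48 ± 0.31, adjusted p = 0.0199, 16 fits).

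In the epidermis the genes of the outermost layers did not all move one way. Of 34 genes of terminal differentiation and the cornified envelope, the cross-linked protein shell of dead keratinocytes, 7 rose and 0 fell, with a median of 0.40. Those that rose were Casp14, Ivl, Sprr1b, Rptn, Sprr2b, Sprr2d and Tgm3. Casp14, a protease of the cornifying layer, lay between 44.7 and 102 CPM at day 4 (median 59.4) and between 82.2 and 482 CPM at day 7 (median 180.3) (1.77 ± 0.35, adjusted p = 0.0184, 16 fits). Day 7 vehicle mice reached higher (96.7 to 482 CPM) than day 7 LPC mice (82.2 to 247 CPM). Rptn, which encodes repetin, ranged from 8.74 to 88.6 CPM around a median of 19.9 in the day 4 mice and from 42.7 to 393 CPM around 135 in the day 7 mice (2.54 ± 0.59, adjusted p = 0.0269, 12 fits). The envelope precursors Ivl (0.79 ± 0.17, adjusted p = 0.0234, 14 fits), Sprr1b (1.65 ± 0.36, adjusted p = 0.0241, 14 fits), Sprr2b (2.85 ± 0.68, adjusted p = 0.0285, 11 fits) and Sprr2d (1.78 ± 0.48, adjusted p = 0.039, 5 fits) and the cross-linking enzyme Tgm3 (1.21 ± 0.33, adjusted p = 0.0423, 5 fits) made up the rest. The list's count was 1 to 13 without 1 mouse. Sprr2 genes are close copies, so their values are uncertain.

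Krt10 and Flg of the same list had signs that differed between the injections. Krt10, the keratin of suprabasal cells, had a median of 4537 CPM at day 4 (lowest 1722, highest 6948) and of 4776 CPM at day 7 (lowest 937, highest 8528), and did not pass (log2 fold change -0.24, adjusted p = 0.804). Within vehicle its change was 1.22, with day 7 mice at 6598 to 8528 CPM against 1722 to 4965 at day 4. Within LPC it was -1.71, with 937 to 2954 CPM against 3055 to 6948. Flg, which encodes filaggrin, moved by 0.96 within vehicle and -2.06 within LPC, and Lor, which encodes loricrin, by -0.15 and -2.26, of 1 sign. Neither passed in the average (adjusted p = 0.628 and 0.128). The late envelope gene Lce1l had the smallest p of the members that did not pass (-2.33 ± 0.69, adjusted p = 0.0529). Without vehicle day 7 mouse 4, 8 members of the list fell.

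Some barrier lipid enzymes and shedding proteases rose. Of 18 enzymes of acylceramide and barrier lipid synthesis 4 rose: the dehydrogenase gene Sdr9c7 (0.92 ± 0.18, adjusted p = 0.0153, 16 fits), the ceramide synthase gene Cers3 (0.90 ± 0.19, adjusted p = 0.0216, 15 fits), the glucosylceramide synthase gene Ugcg (0.63 ± 0.15, adjusted p = 0.0277, 11 fits) and Degs2 (0.86 ± 0.22, adjusted p = 0.0341, 7 fits); the count was 1 to 6 without 1 mouse. Of 19 proteases and inhibitors of shedding, 3 rose and 1 fell, and 2 to 7 rose and 0 to 4 fell without 1 mouse. Klk13, a kallikrein that cuts the links between dead cells, lay between 29.6 and 94.6 CPM at day 4 (median 67.7) and between 40.3 and 372 CPM at day 7 (median 239.6) (1.85 ± 0.35, adjusted p = 0.0148, 16 fits). Klk8 (0.77 ± 0.16, adjusted p = 0.0187, 16 fits) and the lysosomal protease gene Lgmn (1.13 ± 0.26, adjusted p = 0.0257, 11 fits) rose, and the kallikrein inhibitor gene Spink6 fell (-1.44 ± 0.40, adjusted p = 0.0428, 3 fits). Airway-type serine protease genes, which are outside that list, rose too, and Tmprss11a and Tmprss11b were among the 12 largest rises by the ranking above. Tmprss11a (chr5:86410410-86469175) had a median of 0.444 CPM at day 4 (lowest 0.260, highest 0.684) and of 3.20 CPM at day 7 (lowest 0.685, highest 6.63), without overlap (2.94 ± 0.46, adjusted p = 0.0111, 16 fits). Tmprss11b (3.24 ± 0.65, adjusted p = 0.0193, 15 fits) and Tmprss11d (3.12 ± 0.49, adjusted p = 0.0111, 16 fits) rose beside it; all of these were low, at 8.15 CPM or less. The cell adhesion gene Dsg1b (1.32 ± 0.24, adjusted p = 0.0141, 16 fits) and the retinoid carrier gene Crabp2 (0.82 ± 0.15, adjusted p = 0.0147, 16 fits) rose, and Dapl1, a gene of early differentiating keratinocytes, fell (-2.22 ± 0.37, adjusted p = 0.0114, 16 fits). Tmprss11d, Dsg1b, Crabp2 and Dapl1 were named after their values were seen.

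Some wound keratins and antimicrobial proteins rose. Of 19 tested, 6 rose and 0 fell, with a median of 1.45. That median was 0.90 without vehicle day 4 mouse 3, 0.95 without LPC day 4 mouse 4, 0.75 without LPC day 7 mice 2 and 4, and 0.61 with no low-count filter. Krt6a, a keratin that keratinocytes switch on after wounding, lay between 761 and 2995 CPM at day 4 (median 1459) and between 635 and 11022 CPM at day 7 (median 5706) (1.79 ± 0.44, adjusted p = 0.031, 8 fits). Its lowest day 7 value came from a vehicle mouse, and the 4 LPC mice at day 7 were all at 3418 CPM or more. Krt6b ranged from 22.6 to 1399 CPM around a median of 788 in the day 4 mice and from 138 to 7791 CPM around 4932 in the day 7 mice (2.62 ± 0.72, adjusted p = 0.0409, 5 fits). Krt16, their pairing partner, rose by 1.45 ± 0.40 (adjusted p = 0.0419, 4 fits). The serpin gene Serpinb3a (2.52 ± 0.65, adjusted p = 0.0363, 5 fits), the C-type lectin gene Reg3g (2.94 ± 0.79, adjusted p = 0.0391, 5 fits) and the acute-phase gene Saa3 (2.30 ± 0.61, adjusted p = 0.0391, 5 fits) rose too, and Sprr2k was among the 12 largest rises (3.29 ± 0.89, adjusted p = 0.0408, 4 fits). S100a8 and S100a9, the alarmins of neutrophils and inflamed keratinocytes, had changes of 1.65 (adjusted p = 0.121) and 1.93 (adjusted p = 0.0867), which did not pass. In the basal layer Krt14 rose (0.81 ± 0.23, adjusted p = 0.0474, 4 fits) and Dst, which anchors keratin to the basement membrane, fell (-0.62 ± 0.15, adjusted p = 0.0284, 10 fits), out of 15 genes, where 4.75% of all tested genes rose and 2.34% fell. Krt5 was at 0.52 (adjusted p = 0.185). The wound keratin list's count ran from 0 to 10 without 1 mouse, and was 10 without the 2 vehicle mice with the lowest neutrophil scores.

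**Figure D3:**
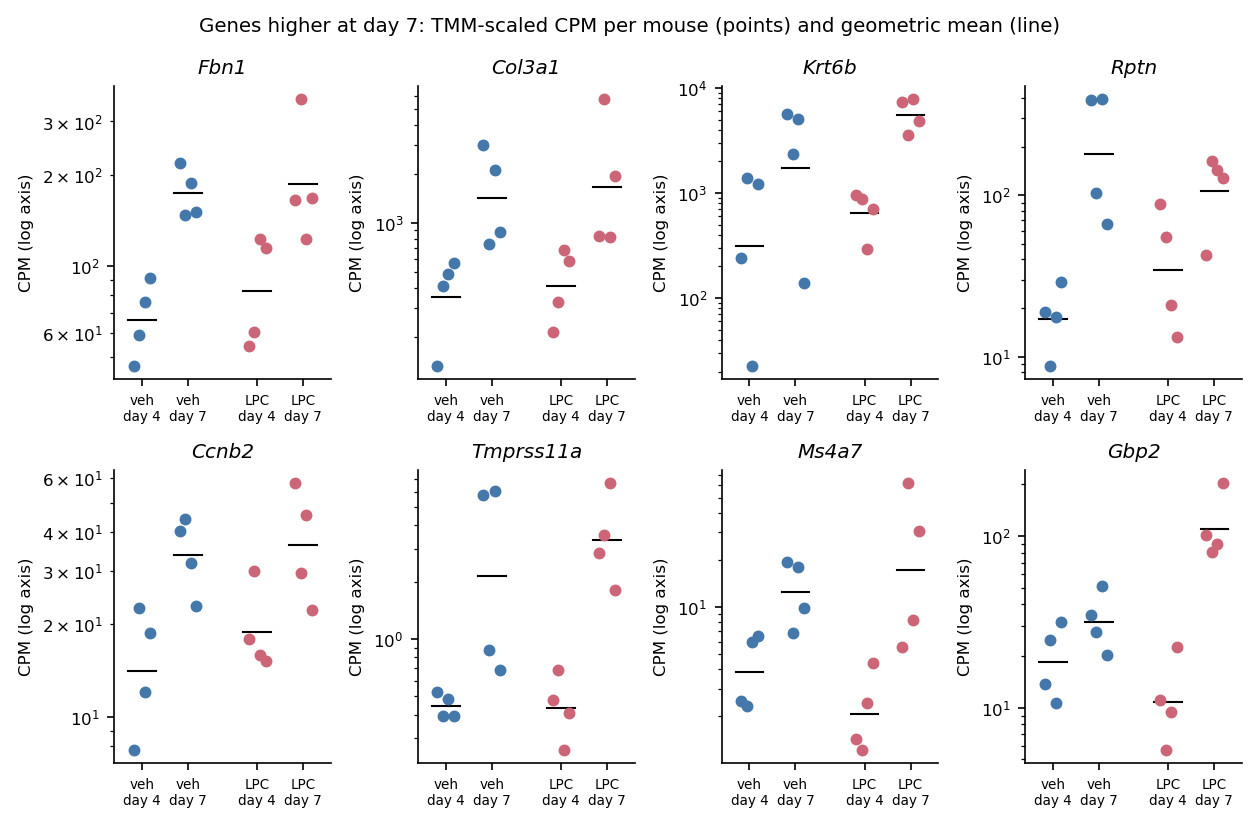
Level per mouse (points, TMM-scaled CPM on a log axis) of 8 genes that rose, in vehicle (blue) and LPC (red) mice at day 4 and day 7, with the geometric mean of each group (line). Fbn1, Col3a1 and Tmprss11a had no day 7 mouse below a day 4 mouse; the other 5 overlapped, and vehicle day 7 mouse 4 is the low point for Krt6b at 138 CPM.

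Some genes of cell division rose. Of 32 genes of S phase and mitosis, 12 rose, 0 fell and all 32 had positive changes, with a median of 0.75 (0.97 within vehicle and 0.50 within LPC). The 12 were Ccnb2, Tpx2, Rrm2, Ccna2, Bub1b, Ccnb1, Aurka, Plk1, Bub1, Birc5, Cdc20 and Cenpe. A common feature of promoters of mitotic genes is the CCAAT box, which the factor NF-Y binds as background knowledge. The 250 bases before the start of 4 of these genes and of the interferon-induced GTPase gene Gbp2 are shown to let the boxes be seen beside the changes (RefSeq, build GRCm38.p6). They are Ccnb2 at chr9:70421555-70421804 (minus strand), Aurka at chr2:172370571-172370820 (minus strand), Bub1 at chr2:127831860-127832109 (minus strand), Cdc20 at chr4:118437344-118437593 (minus strand) and Gbp2 at chr3:142620413-142620662 (plus strand). Each is read 5′ to 3′ on the gene's own strand, with capitals marking CCAAT on either strand and, in Gbp2, a match to GAAANNGAAA on either strand.
Ccnb2: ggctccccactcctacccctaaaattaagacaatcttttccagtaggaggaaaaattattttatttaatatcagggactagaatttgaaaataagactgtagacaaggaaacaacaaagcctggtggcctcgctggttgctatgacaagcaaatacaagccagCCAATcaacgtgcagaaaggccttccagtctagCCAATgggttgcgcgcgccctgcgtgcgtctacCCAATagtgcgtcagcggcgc
Aurka: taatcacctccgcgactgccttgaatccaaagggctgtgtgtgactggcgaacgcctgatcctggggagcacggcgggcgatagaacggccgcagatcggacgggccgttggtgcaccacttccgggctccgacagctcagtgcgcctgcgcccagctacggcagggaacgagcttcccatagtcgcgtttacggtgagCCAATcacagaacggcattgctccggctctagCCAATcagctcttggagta
Bub1: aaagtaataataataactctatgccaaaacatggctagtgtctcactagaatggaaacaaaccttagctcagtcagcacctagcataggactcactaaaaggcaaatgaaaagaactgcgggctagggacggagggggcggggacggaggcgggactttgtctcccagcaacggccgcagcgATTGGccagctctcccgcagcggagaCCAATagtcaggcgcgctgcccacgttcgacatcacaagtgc
Cdc20: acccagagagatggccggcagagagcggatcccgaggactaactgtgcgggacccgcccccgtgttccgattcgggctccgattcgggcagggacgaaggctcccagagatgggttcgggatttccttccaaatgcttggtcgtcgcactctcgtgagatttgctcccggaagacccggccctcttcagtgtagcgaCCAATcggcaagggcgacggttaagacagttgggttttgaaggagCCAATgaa
Gbp2: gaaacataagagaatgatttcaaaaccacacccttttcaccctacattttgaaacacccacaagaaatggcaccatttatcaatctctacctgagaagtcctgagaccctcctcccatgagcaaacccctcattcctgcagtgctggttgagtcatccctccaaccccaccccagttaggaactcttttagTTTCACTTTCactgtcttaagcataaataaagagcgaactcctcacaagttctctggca
CCAAT on either strand was present in this window in 22 of the 27 list members with a promoter entry (81.5%) and in 9 of the 10 that rose and had one, against 39.8% of the 12411 tested genes with an entry. The 4 genes shown have 2 or 3 boxes each and do not stand for all that rose. Ccnb1 also has 2, Rrm2, Bub1b, Plk1 and Cenpe have 1 each, and Birc5 has 0. The match is a description of letters, with no binding measured.

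Ccnb2 (cyclin B2), whose window holds 3 CCAAT boxes 87, 54 and 21 bases before the start, lay between 7.78 and 29.8 CPM at day 4 (median 16.9) and between 22.3 and 57.8 CPM at day 7 (median 36.1) (1.08 ± 0.25, adjusted p = 0.0271, 11 fits). Aurka, a spindle kinase with boxes 51 and 19 bases before the start, had a median of 12.3 CPM at day 4 (lowest 7.09, highest 24.1) and of 28.7 CPM at day 7 (lowest 14.4, highest 36.2) (0.95 ± 0.25, adjusted p = 0.038, 5 fits). Bub1, a kinase of the spindle checkpoint, ranged from 2.75 to 14.2 CPM around a median of 7.83 in the day 4 mice and from 8.80 to 24.7 CPM around 16.6 in the day 7 mice (1.03 ± 0.28, adjusted p = 0.0403, 4 fits). Cdc20, which activates the anaphase ligase, lay between 37.9 and 96.9 CPM at day 4 (median 63.4) and between 59.3 and 256 CPM at day 7 (median 126) (1.02 ± 0.28, adjusted p = 0.0428, 5 fits). In these 4 genes the days overlapped, and the lowest day 7 mouse stood above the day 4 median of Ccnb2, Aurka and Bub1 only. Rrm2, which supplies deoxynucleotides (1.18 ± 0.28, adjusted p = 0.0281, 9 fits), Tpx2, a spindle assembly factor (0.89 ± 0.21, adjusted p = 0.0277, 11 fits), and Ccna2, cyclin A2 (0.94 ± 0.24, adjusted p = 0.0341, 8 fits), were the others with the smallest p. The changes of Ccnb1, Plk1, Bub1b, Cenpe and Birc5 were 1.04, 1.07, 1.02, 1.04 and 0.73, and 6, 5, 7, 4 and 4 fits kept them. Mki67, the usual proliferation marker, did not pass (0.76 ± 0.30, adjusted p = 0.125), with 1.28 within vehicle and 0.24 within LPC. Among 17 replication-dependent histone genes H2bc11 rose (1.31 ± 0.36, adjusted p = 0.0417, 3 fits). That count of 1 in 17 is near the 4.75% of all tested genes that rose. The cell division count was 0 to 21 without 1 mouse, 25 without LPC day 7 mice 2 and 4 and 1 in LPC mice alone. It was 0 in vehicle mice alone, a fit that called no gene of any kind.

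**Figure D4:**
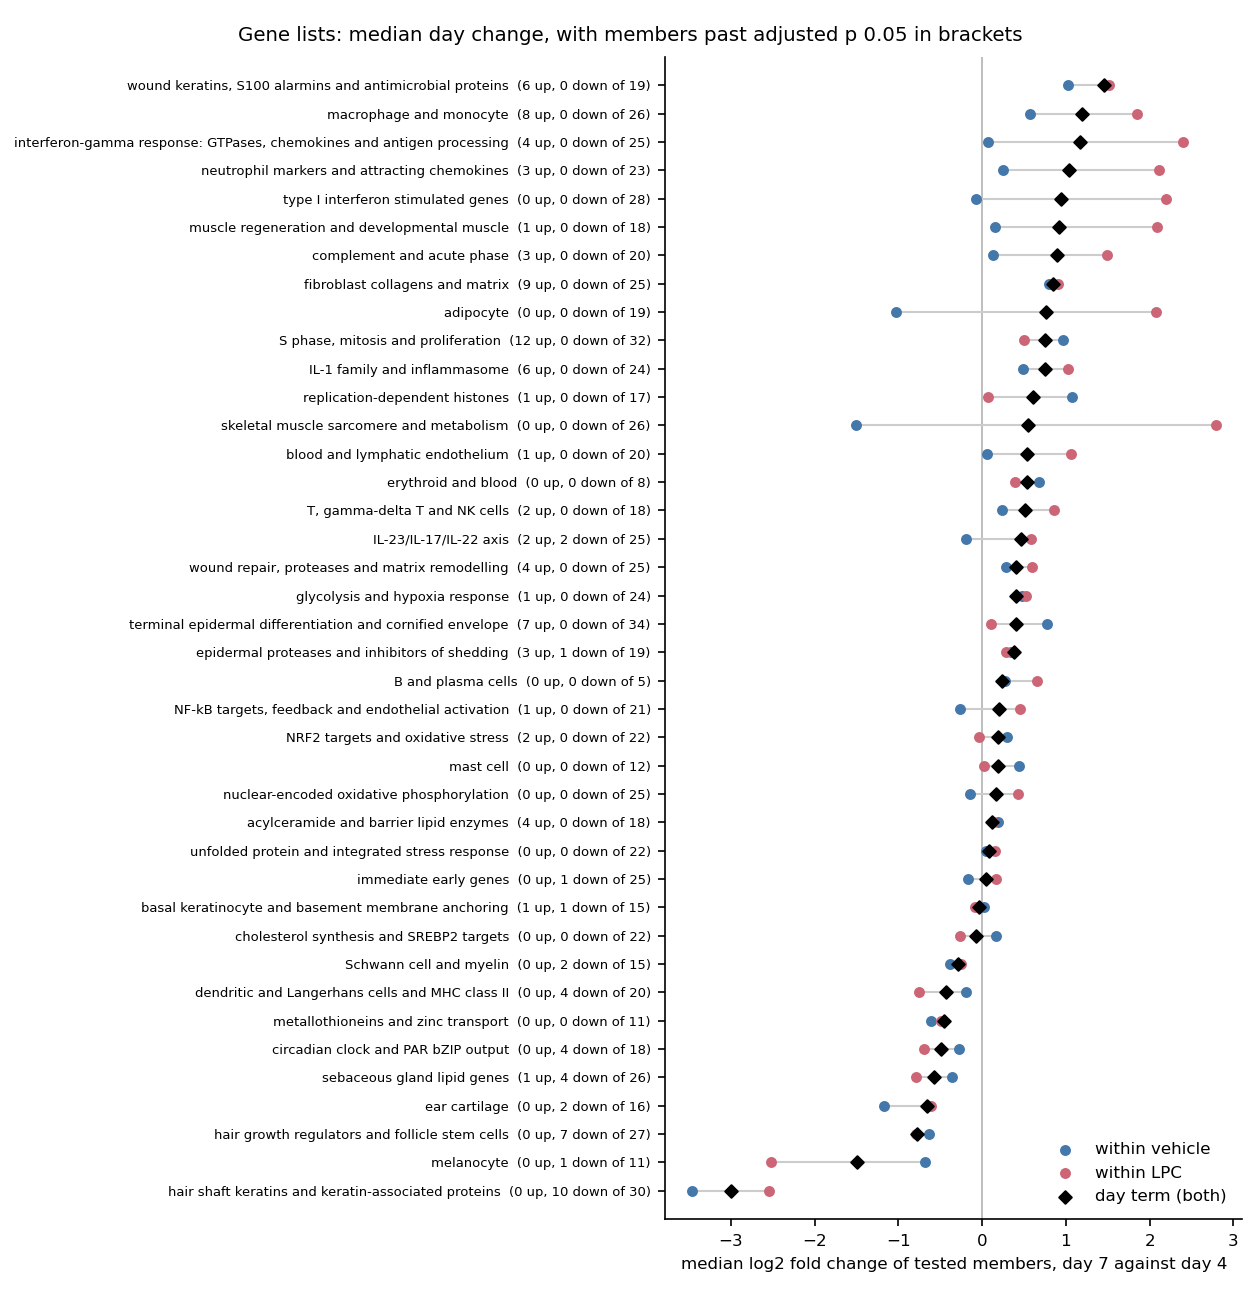
Median log2 fold change of day 7 over day 4 (horizontal axis) of the tested members of 40 gene lists (vertical axis), for the day term (black diamonds), within vehicle (blue) and within LPC (red), with the members that rose and fell in brackets. The medians run from -3.0 for hair shaft genes to 1.45 for wound keratins, and skeletal muscle and adipocyte genes have opposite signs within vehicle and within LPC.

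Some genes of the macrophage and monocyte list rose. Of 26 tested, 8 rose and 0 fell, with a median of 1.19 (0.57 within vehicle, 1.85 within LPC). Fcgr3, an Fc receptor for antibody, lay between 8.12 and 29.6 CPM at day 4 (median 16.4) and between 19.6 and 102 CPM at day 7 (median 55.2) (1.58 ± 0.33, adjusted p = 0.0212, 15 fits). All 4 LPC mice at day 7 were at 73.5 CPM or more, and all vehicle mice were at 37.0 CPM or less. Ms4a7, a membrane protein of macrophages, had a median of 2.46 CPM at day 4 (lowest 1.22, highest 6.49) and of 13.9 CPM at day 7 (lowest 5.54, highest 61.7) (2.55 ± 0.55, adjusted p = 0.0234, 14 fits). Arg1, arginase, an enzyme of wound macrophages (1.71 ± 0.39, adjusted p = 0.0268, 12 fits), and the lysosomal protein gene Cd68 (1.08 ± 0.25, adjusted p = 0.0277, 10 fits) rose. The other 4 were the chemokine receptor gene Ccr2 (2.39, 7 fits), the mannose receptor gene Mrc1 (1.41, 8 fits), the integrin gene Itgam (1.59, 5 fits) and the lipid-sensing receptor gene Trem2 (2.03, 5 fits). The members did not move together between mice. LPC day 7 mice 1 and 3, with the highest neutrophil scores (7.87 and 7.77), had Fcgr3 at 102 and 75.0 CPM and Itgam at 157 and 134 CPM. Their Ms4a7 was at 5.54 and 8.31 CPM, against 61.7 and 30.5 CPM in LPC day 7 mice 2 and 4. Which cells held these RNAs was not tested. Outside the list, Ms4a4b (4.77 ± 1.18, adjusted p = 0.0317, 10 fits), the eosinophil-type ribonuclease genes Ear6 (3.06 ± 0.59, adjusted p = 0.0165, 16 fits) and Rnase2b (3.15 ± 0.64, adjusted p = 0.0193, 15 fits), and Cd300c2 (2.69 ± 0.47, adjusted p = 0.013, 16 fits) were among the 12 largest rises. Ms4a4b lay between 0 and 0.688 CPM at day 4 (median 0.183) and between 0.301 and 48.9 CPM at day 7 (median 1.04). Its highest values were those of LPC day 7 mice 2 and 4, and every other mouse was at 6.88 CPM or less. Ear6 and Rnase2b have near-identical copies, so their values are uncertain. The count for the macrophage list was 0 to 11 without 1 mouse and 6 without LPC day 7 mice 2 and 4, where the median was 0.57. Pla2g7, which encodes an enzyme that releases LPC from oxidised phospholipids, ranged from 20 to 29.6 CPM around a median of 22 in the day 4 mice and from 18.7 to 107 CPM around 60.6 in the day 7 mice (1.16 ± 0.28, adjusted p = 0.0306, 10 fits), with 0.32 within vehicle and 2.00 within LPC. Gpr132, a receptor linked to LPC, did not pass in the average (0.59 ± 0.24, adjusted p = 0.142). LPC mice at day 7 were at 10.7 to 18.7 CPM and every other mouse was at 8.75 CPM or less. Vehicle mice were at 3.72 to 6.19 CPM at day 4 and 4.25 to 8.07 CPM at day 7.

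Of 23 neutrophil markers and attracting chemokines 22 had a positive change, with a median of 1.04 (0.25 within vehicle and 2.11 within LPC). The count that rose was 3, and it was 0 to 7 without 1 mouse (7 without vehicle day 7 mouse 4). They were the receptor gene Csf3r (1.69 ± 0.49, adjusted p = 0.0498, 3 fits) and the stefin genes Stfa2 (2.14 ± 0.59, adjusted p = 0.0427, 4 fits) and Stfa3 (2.23 ± 0.52, adjusted p = 0.0277, 10 fits), which are close copies. Of 18 T and NK cell genes 2 rose, Cd4 (1.63 ± 0.45, adjusted p = 0.0427, 6 fits) and the co-stimulator gene Icos (1.16 ± 0.29, adjusted p = 0.0349, 6 fits). Both were low, at 7.92 CPM or less, and the count was 0 to 3 without 1 mouse and 0 without LPC day 7 mice 2 and 4. Of 5 B and plasma cell genes and 12 mast cell genes none passed; the smallest p were those of Cd79b (1.19 ± 0.44, adjusted p = 0.101) and Sdc1 (0.46 ± 0.25, adjusted p = 0.247), and of Kit (-0.66 ± 0.20, adjusted p = 0.0535) and Hpgds (0.51 ± 0.24, adjusted p = 0.202).

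Some dendritic cell genes fell. Of 20 genes of dendritic cells, Langerhans cells and MHC class II, 4 fell and 0 rose, with a median of -0.43, and the list score (mean log2 CPM) was 3.47 to 4.11 at day 4 and 2.97 to 3.47 at day 7. Cd207 (chr6:83671207-83677857), which encodes langerin, the defining lectin of Langerhans cells, lay between 8.26 and 25.0 CPM at day 4 (median 10.9) and between 1.66 and 5.53 CPM at day 7 (median 3.17). No mouse of day 7 reached one of day 4 (-1.76 ± 0.28, adjusted p = 0.0111, 16 fits). The chemokine gene Ccl17, made by Langerhans and dermal dendritic cells, had a median of 3.13 CPM at day 4 (lowest 1.68, highest 7.35) and of 0.498 CPM at day 7 (lowest 0.201, highest 2.84) (-2.27 ± 0.47, adjusted p = 0.0203, 15 fits). The maturation marker Cd83 (-0.79 ± 0.20, adjusted p = 0.0357, 5 fits) and the class II gene H2-Aa (-0.66 ± 0.19, adjusted p = 0.0483, 3 fits) fell as well. The count was 1 to 5 without 1 mouse.

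**Figure D5:**
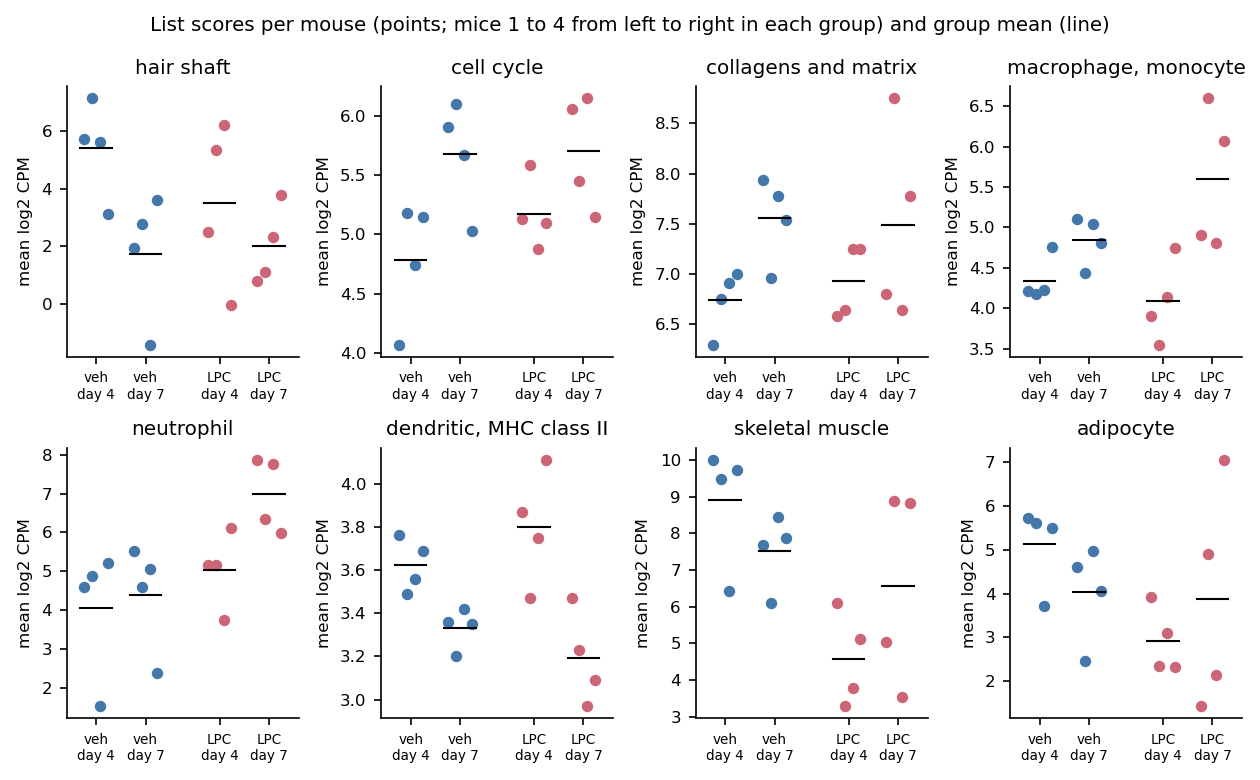
Score of 8 gene lists (vertical axis, mean log2 CPM of the members) in each mouse (points, mice 1 to 4 from left to right) of the vehicle (blue) and LPC (red) groups at day 4 and day 7, with the group mean (line). Dendritic cell scores reach from 3.47 to 4.11 at day 4 and from 2.97 to 3.47 at day 7, whereas skeletal muscle scores span 3.29 to 10 at day 4 and 3.53 to 8.88 at day 7.

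The IL-23 and IL-17 axis did not move one way. Of 25 tested genes 2 rose and 2 fell, with 1 to 6 and 0 to 2 in the fits without 1 mouse. Il1f6, which encodes IL-36 alpha, an epithelial cytokine of the IL-1 family, lay between 13.9 and 36.1 CPM at day 4 (median 19.9) and between 24.6 and 79.7 CPM at day 7 (median 53.7) (1.22 ± 0.24, adjusted p = 0.0177, 16 fits). Il1f9, IL-36 gamma, rose by 0.75 ± 0.20 (adjusted p = 0.0382, 5 fits). Ccl20, the keratinocyte chemokine that draws IL-17-making T cells, had a median of 97.0 CPM at day 4 (lowest 30.8, highest 244) and of 16.3 CPM at day 7 (lowest 4.01, highest 84.6) (-2.24 ± 0.52, adjusted p = 0.0276, 11 fits). The cytokines themselves varied widely and did not pass. Il17a ranged from 0 to 2.75 CPM around a median of 0.0736 in the day 4 mice and from 0 to 7.22 CPM around 0.698 in the day 7 mice; its change was 1.69 ± 1.42 (adjusted p = 0.482), with -1.07 within vehicle and 5.47 within LPC. Il17f was at 1.82 (adjusted p = 0.315) and Il22 at 2.12 (adjusted p = 0.296), and the p40 and p19 subunit genes of IL-23, Il12b and Il23a, were at -0.0044 and -0.35 (adjusted p = 0.998 and 0.723). Tnf (-0.34 ± 0.37, adjusted p = 0.594), Il6 (1.36 ± 0.95, adjusted p = 0.389) and Il1b (1.65 ± 0.82, adjusted p = 0.218) did not pass either.

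Genes of the IL-1 family and the inflammasome, the complex that ripens IL-1, rose in 6 of 24 cases with 0 falls and a median of 0.75. Besides the IL-36 genes these were the adaptor gene Pycard (0.71 ± 0.16, adjusted p = 0.0276, 11 fits), the protease gene Casp1 (1.05 ± 0.29, adjusted p = 0.0423, 3 fits) and the pore-forming gasdermin genes Gsdmd (0.97 ± 0.27, adjusted p = 0.0446, 4 fits) and Gsdmc (1.64 ± 0.44, adjusted p = 0.0397, 5 fits). Gsdmc belongs to a cluster of close copies. The count was 1 to 11 without 1 mouse. Among 21 NF-kB targets and feedback genes Nos2, inducible nitric oxide synthase, rose (2.06 ± 0.54, adjusted p = 0.0377, 6 fits), with LPC mice at day 7 at 14.2 to 89.2 CPM and vehicle mice at 8.38 CPM or less. That count of 1 in 21 is near the 4.75% of all tested genes that rose.

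Of 25 genes of the interferon-gamma response 4 rose and 0 fell in the average. The list's median change was 0.07 within vehicle and 2.40 within LPC, though the test of the difference between the injections passed for no gene. The highest muscle scores among LPC mice were those of LPC day 7 mice 2 and 4. Their interferon-gamma list scores (mean log2 CPM) were 5.74 and 6.89, against 4.30 and 4.43 in the other 2 LPC day 7 mice. Without mice 2 and 4 the list's median in the average went from 1.17 to 0.43 and the number that rose to 2, and without mouse 4 alone the median was 0.73. The count was 0 to 7 without 1 mouse, with 0 in 5 of the fits. Gbp2, a GTPase that attacks vacuoles of intracellular microbes, lay between 5.67 and 31.5 CPM at day 4 (median 12.4) and between 20.4 and 203 CPM at day 7 (median 66.0) (2.01 ± 0.49, adjusted p = 0.0312, 9 fits). The day 7 LPC mice were at 80.8 to 203 CPM and every other mouse was at 51.2 CPM or less. In the window printed above, Gbp2 has a match to the interferon-stimulated response element GAAANNGAAA 59 bases before its start. That motif was found, on either strand, in 11 of 18 list members with an entry (61.1%) and in 3.28% of tested genes with one. TTCNNNGAA, the interferon-gamma activated site, was found in 9 of the 18 (50%) and in 7.31%. Of the 2 members that rose and had an entry, Gbp2 held GAAANNGAAA but not TTCNNNGAA, and Irf8 held TTCNNNGAA but not GAAANNGAAA. Gbp4 (1.58 ± 0.37, adjusted p = 0.0283, 11 fits), Gbp8 (2.14 ± 0.60, adjusted p = 0.0444, 5 fits) and the transcription factor gene Irf8 (1.17 ± 0.32, adjusted p = 0.0408, 6 fits) also rose; Gbp genes are related copies with uncertain splits. Of 28 type I interferon genes none passed with all 16 mice, the lowest adjusted p being those of Ifi44l (2.56 ± 0.83, adjusted p = 0.0702) and Ddx60 (1.36 ± 0.48, adjusted p = 0.092). That count rested on single mice: 6 were higher without vehicle day 7 mouse 4, 5 without vehicle day 4 mouse 4 and 5 with DESeq2. The list's median of 0.94 was 0.48 without LPC day 7 mouse 4 and 0.07 without LPC day 7 mice 2 and 4. Isg15 was at -0.96 within vehicle and 1.86 within LPC, and at 0.45 in the average (adjusted p = 0.684). Complement genes rose in 3 of 20 cases: the anaphylatoxin receptor genes C5ar1 (1.58 ± 0.34, adjusted p = 0.022, 15 fits) and C3ar1 (2.10 ± 0.54, adjusted p = 0.035, 7 fits), and Saa3, with a count of 0 to 6 without 1 mouse.

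Some collagens and matrix proteins of the dermis rose. Of 25 genes of fibroblast collagens and matrix 9 rose and 0 fell, with medians of 0.85 in the average, 0.80 within vehicle and 0.91 within LPC. Col3a1 (chr1:45311538-45349706), the collagen of young scar, lay between 132 and 678 CPM at day 4 (median 445) and between 739 and 5739 CPM at day 7 (median 1408). No day 7 mouse was below a day 4 mouse (2.23 ± 0.47, adjusted p = 0.0216, 15 fits). Fbn1, which encodes the microfibril protein fibrillin-1, had a median of 68.4 CPM at day 4 (lowest 46.7, highest 123) and of 167 CPM at day 7 (lowest 123, highest 355), again without overlap (1.28 ± 0.24, adjusted p = 0.0144, 16 fits). Fbln1 (0.97 ± 0.18, adjusted p = 0.0144, 16 fits) and Col12a1 (1.19 ± 0.25, adjusted p = 0.0216, 15 fits) followed, and Col1a1 rose by 1.90 ± 0.49 (adjusted p = 0.0363, 7 fits). Col5a1 (1.52, 10 fits), Col5a2 (1.32, 15 fits), Fbln2 (1.12, 14 fits) and the fibroblast receptor gene Pdgfra (0.85, 9 fits) completed the list. The collagen cross-linking gene Loxl1, named after its values were seen, ranged from 18.9 to 50.3 CPM around a median of 29.2 in the day 4 mice and from 51.5 to 202 CPM around 72.6 in the day 7 mice (1.39 ± 0.26, adjusted p = 0.0152, 16 fits), and P4ha3, a subunit of the collagen prolyl hydroxylase, was among the 12 largest rises (2.71 ± 0.57, adjusted p = 0.0215, 15 fits). LPC day 7 mouse 2 was at 5276 CPM for Col1a1 and 18.7 CPM for P4ha3. Every other mouse was at 1465 and 3.49 CPM or less. The count was 2 to 11 without 1 mouse, and without LPC day 7 mice 2 and 4 it was 8 and the median 0.45. With LPC mice alone the count was 1, and with vehicle mice alone, a fit that called no gene of any kind, it was 0.

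Repair genes rose in 4 of 25 cases (1 to 5 without 1 mouse). Tnc, which encodes tenascin-C of healing wounds, lay between 31.3 and 486 CPM at day 4 (median 144) and between 116 and 1876 CPM at day 7 (median 533) (2.03 ± 0.45, adjusted p = 0.0245, 13 fits). Fn1, fibronectin (1.16 ± 0.24, adjusted p = 0.0193, 15 fits), Loxl2 (1.03 ± 0.19, adjusted p = 0.0151, 16 fits) and Tgfb1 (0.43 ± 0.12, adjusted p = 0.0448, 4 fits) were the others. Of 20 endothelial genes Aplnr, a receptor of sprouting vessels, rose (1.97 ± 0.56, adjusted p = 0.046, 6 fits), and the highest value, 52.8 CPM, was that of an LPC day 7 mouse. Of 18 genes of muscle regeneration 1 rose: Chrng, the fetal subunit of the muscle acetylcholine receptor, had a median of 0.123 CPM at day 4 (lowest 0, highest 0.712) and of 0.825 CPM at day 7 (lowest 0, highest 16.7) (4.08 ± 1.11, adjusted p = 0.0406, 5 fits). Its call was lost without the 2 vehicle mice with the lowest neutrophil scores, and muscle scores moved widely between mice. The counts of 1 in 20 endothelial genes and 1 in 18 muscle regeneration genes are near the 4.75% of all tested genes that rose.

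Muscle and fat genes gave no call in the average. Of 26 skeletal muscle genes 0 passed and the median was -1.51 within vehicle and 2.79 within LPC; Actn2 and Neb had the smallest p (1.09 ± 1.12, adjusted p = 0.579 and 0.81 ± 0.91, adjusted p = 0.615). Of 19 adipocyte genes 0 passed, with medians of -1.03 and 2.07, and Plin4 and Acvr1c had the smallest p (-0.90 ± 0.49, adjusted p = 0.262 and 0.93 ± 0.68, adjusted p = 0.415). With the muscle score as a covariate 2022 genes were called, and with the hair shaft score, which itself fell with day, 0 were. The part of tissue make-up in the other changes was not tested beyond this.

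Of 18 circadian clock genes 4 fell and 0 rose, with a median of -0.49. Tef, a transcription factor at the output of the circadian clock, lay between 145 and 273 CPM at day 4 (median 189.9) and between 62.6 and 254 CPM at day 7 (median 108) (-0.77 ± 0.18, adjusted p = 0.0283, 9 fits). Its relative Hlf (-1.35 ± 0.35, adjusted p = 0.0363, 5 fits) and the repressor gene Cry2 (-0.52 ± 0.14, adjusted p = 0.0397, 6 fits) fell as well. The count was 0 to 8 without 1 mouse. The hour of killing is not in the labels used, and its part in this result was not tested. Egr2 was the only one of 25 immediate early genes that passed, and it fell, where 2.34% of all tested genes did.

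Lists of metabolism, stress responses, metallothioneins and red cells gave 2 calls or fewer each with all 16 mice. Of 24 genes of glycolysis and the response to low oxygen Pgam1 rose (0.69 ± 0.20, adjusted p = 0.0498, 3 fits), and 9 rose without vehicle day 7 mouse 4. With all mice the count of 1 in 24 is near the 4.75% of all tested genes that rose. Of 22 targets of the antioxidant factor NRF2 Gsta1 (1.40 ± 0.28, adjusted p = 0.0187, 16 fits) and Pgd (0.32 ± 0.09, adjusted p = 0.0469, 1 fit) rose; Gsta1 has close copies. With all 16 mice no gene passed among 25 of oxidative phosphorylation, 22 of sterol synthesis, 22 of the unfolded protein response, 11 of metallothioneins and zinc transport and 8 of red cells. The members of these lists with the smallest p were Cox6a1 (0.29 ± 0.10, adjusted p = 0.0959), Sdhd (0.35 ± 0.14, adjusted p = 0.113), Stard4 (0.72 ± 0.22, adjusted p = 0.0582), Ebp (0.30 ± 0.10, adjusted p = 0.0859), Ddit3 (-0.35 ± 0.14, adjusted p = 0.127), Pdia4 (0.47 ± 0.19, adjusted p = 0.137), Mt4 (-2.41 ± 0.70, adjusted p = 0.0504), Slc39a2 (-0.74 ± 0.23, adjusted p = 0.0603), Hbb-bt (1.03 ± 0.45, adjusted p = 0.164) and Slc4a1 (-1.34 ± 0.66, adjusted p = 0.214). Mt4, a metallothionein of differentiating epithelium, was at 0.722 to 8.58 CPM in LPC mice at day 7 and at 19.9 CPM or more in all other mice.

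The 5 genes with the smallest p for a different day change between the injections did not pass over all genes. Tbx3, a T-box transcription factor, changed by -1.14 within vehicle and 1.12 within LPC (adjusted p of the difference 0.0583). Vehicle mice were at 7.78 to 13.2 CPM at day 4 and 3.23 to 6.11 at day 7, and LPC mice at 3.66 to 4.83 and then 8.26 to 10.6. Trim62 went from 0.52 to -0.84, Oas1f from 0.46 to -2.09, the leukocyte integrin gene Itgal from 0.26 to 2.35 and Hpcal1 from 0.09 to 1.12, in each case vehicle first and LPC second. Of these Itgal (1.31 ± 0.33, adjusted p = 0.0339, 7 fits) and Hpcal1 (0.61 ± 0.16, adjusted p = 0.035, 5 fits) were called in the average, and for Tbx3 the average of -0.01 stood for changes of opposite sign.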

How the data were processed

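RNA from the ear skin of 16 mice was extracted with TRIpure and sequenced on a BGISEQ-500, per the labels' protocols. The authors aligned reads with Bowtie2 to GRCm38, per the submitters' processing notes, and deposited an RSEM expected count and an FPKM value per gene. Their versions and the strand setting are not in the labels or notes used. Days were taken from titles, since file names give other day numbers. A gene missing from a library was taken as 0. RSEM shares reads between similar genes by a model, so close copies are uncertain.

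Of 19439 genes, 19307 had a RefSeq symbol. Expected counts were rounded, filterByExpr removed 3657 genes, and edgeR 4.0.16 (R 4.3.3) fitted treatment plus day to 15782 by quasi-likelihood (13 residual degrees of freedom, common dispersion 0.142, TMM factors 0.836 to 1.11). Log2 CPM used a prior count of 2. A count of 0 allows up to 3 counts, 0.145 to 0.181 CPM, for counting error only. Alternatives used DESeq2 1.42.0 and limma 3.58.1. No 2 libraries of a group agreed within sampling noise (mean chi-square per gene at least 15.89; correlations 0.8913 to 0.9841). The test was checked on simulated counts, drawn independently for each gene and mouse. Differences between mice in tissue make-up were not simulated, so the check does not cover them.

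The comparison, the 40 gene lists and their members were chosen with earlier results of these data known. Named genes were the 12 largest rises and falls (ranked as the report states), up to 4 called members per list with the smallest p (or 2 where none was called), a panel of 20 genes and the 5 smallest p for the difference; further called members were named after their values were seen. Of 880 listed symbols 859 matched; the others are not analysed here. Some genes that the rule names are not reported here.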

Additional observations from a re-analysis of the deposited data

Results flagged for a closer look

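In the 4 groups of 4 mice, the gap of the highest or lowest mouse to its nearest neighbour was set against Dixon's 95% limit for each named gene on the log2 CPM scale and for 8 list scores. Of 804 such groups 53 were past the limit (6.59%), and chance gives about 1 in 20. Each value below is a mouse's log2 CPM (or list score, its mean over members), with that of the nearest mouse of the group in brackets. No cause was tested for any of them.

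Vehicle day 7 mouse 4 was lowest of its group for Krt5 at 11.85 (13.08), Pdia4 at 5.44 (6.38), Pgam1 at 7.86 (8.99), Pycard at 5.47 (6.47) and Rrm2 at 5.10 (6.65). It was also lowest for S100a8 at 6.51 (10.35), S100a9 at 6.40 (10.94), Saa3 at 5.69 (7.89), Sdhd at 6.12 (6.74) and Stfa2 at 2.31 (5.64). Further highest values there were Mt4 at 6.74 (5.14) and Ncmap at 4.59 (2.94). Vehicle day 4 mouse 3 was lowest of its group for Gpr132 at 1.93 (2.63), Hbb-bt at -0.66 (1.18), Il1b at 1.49 (6.27), Isg15 at 5.10 (5.73) and Lipa at 4.03 (4.35). It was also lowest for the adipocyte list score at 3.71 (5.51), the neutrophil list score at 1.53 (4.60) and the skeletal muscle list score at 6.43 (9.48). Further highest values there were Cd4 at 1.33 (0.47). Vehicle day 4 mouse 4 was lowest of its group for Krt32 at 3.47 (6.15), Krt40 at 0.41 (3.19), Krtap5-3 at 1.01 (3.31), Krtap5-4 at 1.30 (3.82) and Lyg2 at 1.30 (3.59). It was also lowest for Sox9 at 5.53 (6.21) and Vsig8 at 4.37 (7.37). Further highest values there were Ccr2 at 3.44 (1.33) and the macrophage list score at 4.76 (4.22).

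LPC day 7 mouse 1 was lowest of its group for Il1f6 at 4.72 (5.72) and Serpinb3a at 5.70 (6.54). It was also highest for Ccl17 at 0.39 (-1.42), Gfap at -0.63 (-1.64), Gpr132 at 4.23 (3.49) and Il22 at 2.38 (0.60). LPC day 7 mouse 2 was lowest of its group for Msx2 at 0.86 (2.14) and Nos2 at 3.84 (6.13). It was also highest for Pycard at 6.63 (5.93) and Trem2 at 5.09 (2.11). LPC day 4 mouse 1 was lowest of its group for Cd79b at -2.68 (-1.53). It was also highest for Il22 at -1.93 (-3.28). LPC day 4 mouse 4 was highest of its group for Chrng at -0.29 (-2.68) and Pla2g7 at 4.89 (4.38). LPC day 7 mouse 3 was lowest of its group for Far2 at 6.29 (6.68). It was also highest for Krtap12-1 at 0.38 (-1.11). Vehicle day 4 mouse 1 was lowest of its group for Col12a1 at 4.61 (5.69). It was also highest for Cd79b at -0.25 (-1.03). LPC day 4 mouse 2 was highest of its group for Ccnb1 at 5.59 (4.68). LPC day 4 mouse 3 was lowest of its group for S100a9 at 7.79 (10.17). LPC day 7 mouse 4 was lowest of its group for Dynlt1c at 6.41 (6.66). Vehicle day 4 mouse 2 was lowest of its group for Tnf at 2.97 (3.53). Vehicle day 7 mouse 2 was lowest of its group for Hpcal1 at 4.31 (4.61).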

How the results depend on the processing

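Direction was steadier than the number of calls: over the alternatives on all mice, no called gene changed sign except 10 with the hair shaft score as covariate, and 1 did within vehicle alone. The 750 genes higher and 369 lower at day 7 became 656 and 440 with median-of-ratios size factors, 1290 and 973 with DESeq2, 2280 and 2008 with limma-voom and sample weights, 369 and 476 with limma on log2(FPKM + 0.1), 345 and 445 on log2(FPKM + 1), and 1077 and 618 with a mean per group. They were 1254 and 768 with the skeletal muscle score as covariate, and 0 and 0 with the hair shaft score as covariate or with vehicle mice only. The 334 higher and 205 lower over 2-fold became 530 and 420 with DESeq2, 621 and 627 with limma-voom, 175 higher on log2(FPKM + 0.1), 109 and 123 on log2(FPKM + 1), 321 lower with a mean per group, 352 lower with the muscle score, and 0 and 0 with the hair shaft score or with vehicle only. Chosen after seeing the data, leaving out the 2 vehicle mice with the lowest neutrophil scores gave 1037 higher and 834 lower (387 lower over 2-fold). Leaving out LPC day 7 mice 2 and 4 gave 922 and 840 (417 lower over 2-fold). That choice, also made after seeing the data, took the LPC mice with the highest muscle scores. Those fits shared 1060 and 817 of the 1119 main calls; the cause of none of these shifts was tested.

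Leaving out 1 mouse at a time gave 94 to 1430 genes higher and 24 to 1207 lower, 48 to 542 and 18 to 521 over 2-fold, and 0 to 214 genes for the difference between injections (214 without vehicle day 4 mouse 3). For that difference, median-of-ratios size factors called 1, DESeq2 585 and limma-voom 9. The replicate numbers did not pair the mice: same-numbered mice of different groups had correlations of -0.596 to 0.539 in their deviations, 9 of 24 were over 0.1, and 2 of 16 mice correlated best with their own number. With the replicate block 277 genes were higher and 100 lower, and 137 and 58 over 2-fold.

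Some named genes, none of them called, changed sign. With vehicle mice only the changes were Actn2 -1.09, Acvr1c -0.17, Flg 0.94, Il17f -0.31, Il6 -0.32, Isg15 -0.98, Krt10 1.20, Neb -0.85, Oas1f 0.44 and Trim62 0.49. With LPC mice only they were Il12b 1.51, Il23a 0.57, Tbx3 1.13 and Tnf 0.11. Limma-voom gave Actn2 -0.066, Acvr1c -0.11, Il12b 0.52 and Krt10 0.046, and a model without the treatment term gave Actn2 -0.21, Krt10 0.11 and Neb -0.032. Il12b was 0.015 with DESeq2, 0.14 on log2(FPKM + 0.1), 0.044 with a mean per group, 0.25 with the replicate block and 0.11 with the muscle score. The hair shaft score gave Il17a -0.034, Slc4a1 0.16 and Tbx3 0.18. Without LPC day 7 mice 2 and 4, Actn2 was -0.89, Acvr1c -0.53, Isg15 -0.049, Krt10 0.14 and Neb -0.81, and without the 2 vehicle mice Il12b was 0.21 and Tbx3 0.056. Leaving out 1 mouse gave Acvr1c -0.016 to 1.17, Il12b -0.29 to 0.61, Il23a -0.62 to 0.019, Krt10 -0.52 to 0.026 and Tbx3 -0.17 to 0.18.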

Other observations

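Among the 44 genes whose day 4 and day 7 mice did not overlap, several outside the gene lists share a known role; they were picked after their values were seen and get no test as a group. Enzymes of the lysosome, which breaks down engulfed material, were among those with every day 7 mouse above every day 4 mouse. Gusb, beta-glucuronidase, lay between 18.8 and 24 CPM at day 4 (median 22.2) and between 27.2 and 64.1 CPM at day 7 (median 33.6) (0.74 ± 0.16, adjusted p = 0.0217). Galns, which removes sulphate from matrix sugars, had a median of 6.70 CPM at day 4 (lowest 6.16, highest 8.62) and of 12 CPM at day 7 (lowest 9.64, highest 21.4) (0.90 ± 0.15, adjusted p = 0.0114). Lipa, lysosomal acid lipase, ranged from 16.3 to 21.1 CPM around a median of 18.9 in the day 4 mice and from 21.4 to 69.5 CPM around 27.9 in the day 7 mice (0.78 ± 0.21, adjusted p = 0.0386). Of the 16 fits without 1 mouse, 15 kept the call of Gusb, 16 that of Galns and 8 that of Lipa.

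Genes of secretion and the cell surface showed the same separation. Creb3l1, a transcription factor that drives collagen secretion, lay between 7.43 and 16.1 CPM at day 4 (median 13.0) and between 16.6 and 54.1 CPM at day 7 (median 25.3) (1.14 ± 0.22, adjusted p = 0.017). Prdx4, a peroxidase of the endoplasmic reticulum, had a median of 19.6 CPM at day 4 (lowest 15.0, highest 21.9) and of 28.4 CPM at day 7 (lowest 22.9, highest 41.4) (0.65 ± 0.11, adjusted p = 0.0121). Adam19, a membrane protease, ranged from 13.1 to 20.5 CPM around a median of 15.7 in the day 4 mice and from 22.3 to 59.6 CPM around 34.0 in the day 7 mice (1.05 ± 0.19, adjusted p = 0.0135). Cxcl12, a chemokine of dermal stroma, lay between 49.9 and 140.0 CPM at day 4 (median 106) and between 149 and 531 CPM at day 7 (median 204) (1.27 ± 0.28, adjusted p = 0.0239). The calls of Creb3l1, Prdx4 and Adam19 were kept in all 16 fits, and that of Cxcl12 in 15.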
